A study of Mus musculus with 21 samples.

Results

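Nicotinic acetylcholine receptors are ion channels built from 5 subunits that open when acetylcholine binds. The genes described here are 10 neuronal-type subunit genes, chosen by name out of 52550 genes in the deposited count table. They are *Chrna3*, *Chrna4*, *Chrna5*, *Chrna6*, *Chrna7*, *Chrna9*, *Chrna10*, *Chrnb2*, *Chrnb3* and *Chrnb4*, and *Chrna2* is not among them. In the cochlea, acetylcholine is released by olivocochlear efferent fibers from the brainstem. Medial efferents end on outer hair cells, where α9α10 receptors admit calcium and small-conductance potassium channels then open, and lateral efferents end on the peripheral fibers of spiral ganglion neurons (SGNs) beneath the inner hair cells. Elsewhere in the nervous system α4 pairs with β2, α3 pairs with β4 with or without α5, and α6 is found together with β3 in catecholaminergic and visual pathways. *Chrna7* encodes a subunit that forms receptors of its own kind.

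RNA was sequenced from 7 groups of C57BL/6 mouse inner ear cells with 3 replicate libraries per group, 21 libraries in all. SGNs were tdTomato+ cells picked by hand at 5 ages, namely E15.5 and P1, then P8 and P14, and last P30. They came from cochleae of mice that carried 1 *ShhCre* allele (*ShhCre/+*), with Cre driven from the *Shh* locus, and 1 copy of the reporter *Rosa26-CAG-loxp-stop-loxp-tdTomato* (named Ai9). Hair cells (HCs) were taken at P12 from *Atoh1-CreER+* mice carrying Ai9 and given tamoxifen at P0 and P1, and they mix cochlear with vestibular organs. Glial cells were picked at P8 from the ganglion area of *vGlut3-iCreER/+* mice carrying Ai9 and given tamoxifen at P2 and P3. Thus every group shares the tdTomato reporter, and age and cell type cannot be told apart for HCs, which have no SGN group of the same age. Libraries were made from 69 to 195 SGNs, 86 to 125 glial cells and 1200 HCs and held between 10368240 and 37287489 counts on genes. Nothing says that the replicates came from separate animals, so p-values measure the spread between these libraries, which may be technical. In bulk RNA, fewer cells that express a gene and less of its RNA per cell cannot be told apart.

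Levels are given as TPM, the count per base of gene length brought to a total of 1000000 per library, so that subunits can be compared with each other. The summed level of 5 SGN markers (*Slc17a6*, *Slc17a7*, *Tubb3*, *Nefl* and *Gata3*) was between 579 and 4633 TPM in SGN libraries, between 202 and 227 TPM in HCs and between 20.6 and 185 TPM in glial cells, the highest glial value being that of replicate 1. Most of the HC sum was *Nefl* (154 to 176 TPM) and *Gata3* (36.4 to 41.5 TPM), while *Tubb3* was at most 1.30 TPM there. By mean, *Gata3* in HCs (38.7 TPM) was below SGNs at E15.5 and P1 (98.4 and 50.3 TPM). It was above SGNs at P8, P14 and P30 (23.5, 18.6 and 7.90 TPM). The sum of 4 HC markers (*Myo6*, *Myo7a*, *Pou4f3* and *Gfi1*) was between 1288 and 1441 TPM in HCs and between 10.998 and 107 TPM in SGNs. The sum of 2 glial markers (*Sox10* and *Foxd3*) was between 189 and 341 TPM in glial cells and between 0.181 and 26.2 TPM in SGNs. Both markers of cholinergic neurons, *Chat* (acetylcholine synthesis) and *Slc18a3* (vesicular loading), were listed at 0 in all 21 libraries. So neither of these genes gave a read in any group. *Slc5a7* (choline transport) did, at 0.703, 0.544 and 2.91 TPM in HCs and at lower levels in SGNs at E15.5 and P1. Whether efferent terminals were present was not tested.

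The makeup of the subunit RNAs differed between HCs and SGNs, and glial cells held little of any. In HCs the summed level of the 10 subunits was 344 ± 29.8 TPM (SD, n = 3), of which *Chrna10* made up 55.1% ± 4.20 and *Chrna9* 39.3% ± 4.27. In SGNs the sum was 75.8 ± 31.9 TPM at E15.5 and 101 ± 10.001 TPM at P30. In glial cells it was 8.10 ± 6.54 TPM, with a range of 3.83 to 15.6 TPM. The makeup of the SGN sum shifted with age. At E15.5, *Chrna4* was 71.3% ± 10.3 of it and *Chrnb2* 19.0% ± 6.25, while *Chrna6* was at 0 and *Chrnb3* at 0.159% ± 0.201. At P30, *Chrna4* was 27.4% ± 1.96, *Chrnb2* 9.42% ± 1.75, *Chrna6* 20.2% ± 0.174 and *Chrnb3* 34.6% ± 1.66. The 10 shares add to the whole, so a rise in some lowers the others. In TPM, *Chrna4* ranged from 24.3 to 81.5 at E15.5 and from 23.8 to 31.5 at P30. *Chrnb2* ranged from 9.94 to 17.0 and from 7.05 to 11.9 TPM. These ranges overlapped, and neither change passed the thresholds given below.

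**Figure D1:**
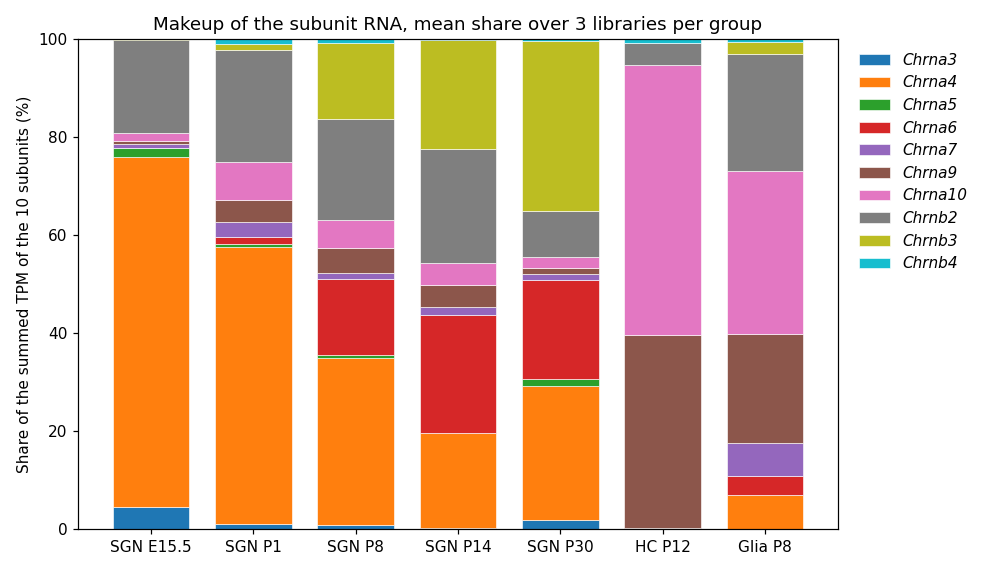
Stacked bars give each subunit's share (%) of the summed TPM of the 10 subunits, as the mean of 3 libraries per group. *Chrna4* falls from 71.3% at E15.5 to 27.4% at P30 in SGNs as *Chrna6* and *Chrnb3* enter, and *Chrna9* with *Chrna10* fill most of the HC bar, while the glial bar rests on a sum of 8.10 TPM.

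Sequence before the start site is shown for the HC pair, whose levels followed each other across libraries, and for the 2 subunits most abundant in E15.5 SGNs. The windows come from the RefSeq promoter table for GRCm38.p6, which held 8 of the 10 subunits but neither *Chrna6* nor *Chrnb3*. Each window is the 250 bases before the RefSeq start, less any base that GENCODE M21 places in an exon, 5′ to 3′ on the gene's strand. For *Chrna10* and *Chrna4* the bases removed are those next to the start. Positions -250 to -116 and -250 to -129 remain. Capitals mark matches to the E-box CANNTG, to TATAAA or to the GC box GGGCGG on either strand. *Chrna9* is at chr5:65966874-65967123 (plus strand, 250 bases), *Chrna10* at chr7:102116829-102116963 (minus strand, 135 bases), *Chrna4* at chr2:181039306-181039427 (minus strand, 122 bases) and *Chrnb2* at chr3:89764633-89764882 (minus strand, 250 bases). The *Chrna9* and *Chrna4* windows lie inside these genes as GENCODE M21 places them (chr5:65934921-65977326 and chr2:181018380-181043546), not before their outermost starts.
Chrna9: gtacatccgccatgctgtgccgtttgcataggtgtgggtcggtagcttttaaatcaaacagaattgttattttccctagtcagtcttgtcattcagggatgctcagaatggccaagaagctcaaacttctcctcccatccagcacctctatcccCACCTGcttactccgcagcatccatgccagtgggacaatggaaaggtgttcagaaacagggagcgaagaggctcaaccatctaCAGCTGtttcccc
Chrna10: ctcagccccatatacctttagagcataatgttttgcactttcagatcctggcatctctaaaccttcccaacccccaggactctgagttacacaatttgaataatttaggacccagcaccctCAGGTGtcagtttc
Chrna4: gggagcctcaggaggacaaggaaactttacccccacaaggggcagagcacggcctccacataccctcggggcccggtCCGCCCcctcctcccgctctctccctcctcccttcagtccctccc
Chrnb2: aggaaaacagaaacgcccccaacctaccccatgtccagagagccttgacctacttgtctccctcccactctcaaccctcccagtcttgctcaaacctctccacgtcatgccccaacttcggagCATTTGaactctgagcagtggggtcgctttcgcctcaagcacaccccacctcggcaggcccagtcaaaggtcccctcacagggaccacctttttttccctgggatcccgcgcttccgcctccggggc
An E-box was matched 2 times before *Chrna9*, 1 time before *Chrna10* and 1 time before *Chrnb2*, and none was found in the *Chrna4* window. Of all 32851 RefSeq windows cut at the same positions, an E-box was present in 66.2% of those of 250 bases, 45.6% of those of 135 bases and 42.4% of those of 122 bases. GC boxes were absent from the first pair and from *Chrnb2*, and the *Chrna4* window held 1, as did 13.1% of windows of its size. TATAAA was in none of the 4 windows and in 12.4%, 6.70% and 6.12% of windows of 250, 135 and 122 bases. The cut windows of *Chrna10* and *Chrna4* cannot show a motif close to the start. In the full 250 bases, exon bases included, *Chrna10* had 2 E-boxes, *Chrna4* had 3 GC boxes and neither had TATAAA. GC content was 50.0% for *Chrna9*, 45.2% for *Chrna10*, 68.0% for *Chrna4* and 59.6% for *Chrnb2*. These matches describe letters only.

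In GENCODE M21 (GRCm38) the subunits fall into 2 clusters and 5 single genes. *Chrna5* (chr9:54980880-55007779, plus strand), *Chrna3* (chr9:55010111-55026562, minus strand) and *Chrnb4* (chr9:55028154-55048779, minus strand) lie side by side with gaps of 2331 and 1591 bases. *Chrnb3* (chr8:27368711-27399730, plus strand) and *Chrna6* (chr8:27403212-27413944, minus strand) face each other tail to tail across 3481 bases. *Chrna10* (chr7:102111266-102116828) shares 1025 of its 2628 exon bases with *Art1* on the opposite strand, and *Chrnb2* (chr3:89746195-89764632) shares 1365 of 8380 with *Adar*. The sources used here do not say whether strand was used in counting, so reads from these shared bases could belong to either gene.

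*Chrna4* and *Chrnb2*, the pair that forms the common high-affinity receptor of the brain, were present in SGNs at every age. *Chrna4* was at 81.5, 24.3 and 62.4 TPM at E15.5 and at 56.0, 43.6 and 57.3 TPM at P1. It was at 23.6, 34.1 and 12.9 TPM at P8, at 10.01, 4.39 and 41.8 TPM at P14 and at 23.8, 31.5 and 27.5 TPM at P30. The P1 libraries were all above the P8, P14 and P30 libraries, E15.5 overlapped every other age, and P14 replicate 3 stood far above the other P14 libraries. Differences below are log2 fold changes from limma-voom, with Benjamini-Hochberg adjusted p. Between ages, a gene was called at adjusted p under 0.05 and over 2-fold in the fit of the 15 SGN libraries, and no transition of *Chrna4* was called. From E15.5 to P30 its log2 fold change was -0.69 (SE 0.32, adjusted p = 0.0919), and it was called lower over this span, and from P1 to P8, under scaling by library size only. From P14 to P30 it was 1.56 (SE 0.40, adjusted p = 0.227), with the call made under sample quality weights and without P14 replicate 3 (adjusted p from 0.0266 to 0.937 over the alternatives).

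*Chrnb2* was steadier. Its levels were 12.6, 9.94 and 17.0 TPM at E15.5 and 19.8, 20.8 and 22.02 TPM at P1. Later they were 11.7, 19.8 and 9.94 TPM at P8, 18.2, 9.25 and 17.1 TPM at P14, and 9.69, 11.9 and 7.05 TPM at P30. P1 was the highest age by mean and its lowest library (19.83 TPM) lay above those of all other ages, P8 replicate 2 (19.78 TPM) being the nearest. The log2 fold change from E15.5 to P30 was -0.31 (SE 0.21, adjusted p = 0.240), and no transition was called. HCs had *Chrnb2* at 13.5, 14.6 and 18.2 TPM, within the range of the SGN libraries, while glial cells had 1.20, 0.198 and 2.86 TPM. Thus *Chrnb2* was over 5 TPM in every SGN and HC library. The level of *Chrna4* relative to *Chrnb2* had a median of 3.67 at E15.5 and of 2.64 at P30, and between these ages it went through 2.60 at P1 and 1.73 at P8 to 0.550 at P14, where it spread from 0.474 to 2.45.

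**Figure D2:**
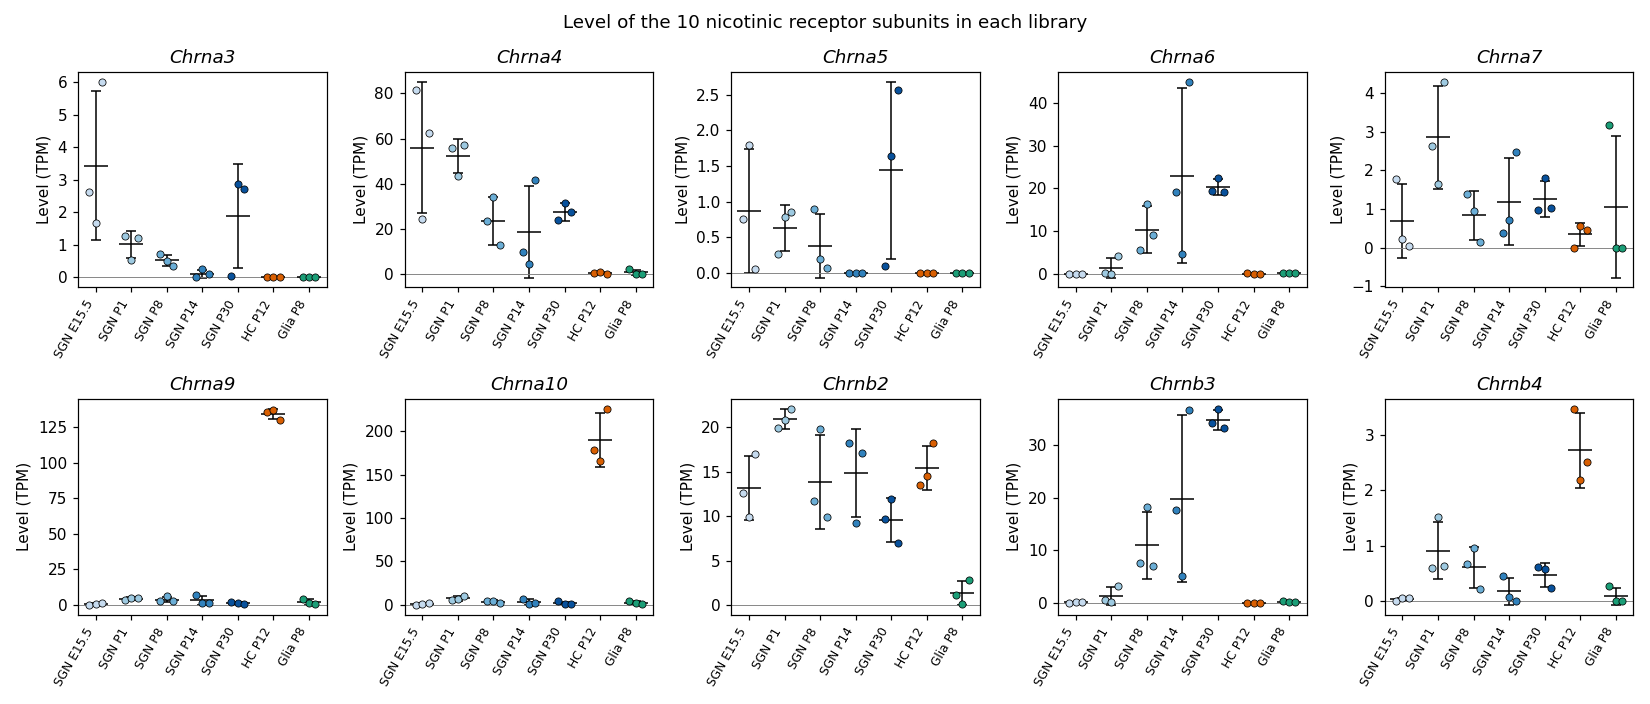
Each panel gives 1 subunit's level (TPM, linear axis with its own scale) in the 21 libraries; points are libraries, horizontal bars are group means and error bars are SD (n = 3). *Chrna6* and *Chrnb3* climb from 0 to 0.152 TPM at E15.5 to between 19.1 and 36.9 TPM at P30, and *Chrna9* and *Chrna10* are over 130 TPM in HCs and at most 10.3 TPM elsewhere.

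*Chrna6* and *Chrnb3*, the neighboring genes on chromosome 8, were near 0 in SGNs before birth and rose in the first postnatal week. *Chrna6* was at 0 in all 3 libraries at E15.5, at 0.243, 0.0440 and 4.10 TPM at P1 and at 5.51, 16.3 and 9.21 TPM at P8. It then reached 19.2, 4.57 and 45.0 TPM at P14 and 19.3, 22.5 and 19.1 TPM at P30. *Chrnb3* was at 0, 0.152 and 0.0824 TPM at E15.5, 0.539, 0.0602 and 3.23 TPM at P1 and 7.50, 18.3 and 6.97 TPM at P8, and it reached 17.6, 5.13 and 36.6 TPM at P14 and 34.2, 36.9 and 33.3 TPM at P30. For both genes every P8 library was above every P1 library and every P30 library above every P8 library. P1 replicate 3 was the highest library of its age for both, at 4.10 and 3.23 TPM, and P14 ranged widely, with replicate 2 low and replicate 3 high for both genes.

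Of the 10 subunits, 9 passed the filter on low counts and were tested. From P1 to P8, 2 of these 9 were called, both higher, where 7.44% of all 15113 genes were called and 4.29% were called higher. *Chrna6* rose by 5.07 on the log2 scale (SE 1.16, adjusted p = 0.00948) and *Chrnb3* by 4.78 (SE 0.95, adjusted p = 0.00376). The *Chrnb3* call was made under all 14 alternatives, with adjusted p from 0.00186 to 0.0310. The *Chrna6* call was missing from 2 of 14, the edgeR quasi-likelihood test and the fit without P1 replicate 1, with adjusted p from 0.00282 to 0.0644 over the alternatives. The median log2 fold change of the 9 subunits was -0.24, against -0.01 for all genes.

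No subunit was called from P8 to P14, where 0.536% of genes were called, and none from P14 to P30, where 0.0596% were (5 genes higher and 4 lower, or 15 and 8 with the replicate number as a block). At an unadjusted p under 0.05, 1734 and 990 genes passed in those transitions, and edgeR and DESeq2 called none of the subunits in either. *Chrnb3* had a log2 fold change of 1.58 from P14 to P30 (SE 0.34, adjusted p = 0.127), with P30 overlapping P14 replicate 3, and it was called under sample quality weights and without P14 replicate 3 (adjusted p from 0.0133 to 0.861 over the alternatives). *Chrna6* changed by 0.73 over the same step (SE 0.41, adjusted p = 0.844). The level of *Chrna6* relative to *Chrnb3* was between 0.735 and 1.32 at P8, 0.892 and 1.23 at P14 and 0.564 and 0.610 at P30, so the P30 ratios lay below those of both earlier ages.

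Over the whole span from E15.5 to P30, 3 of 9 subunits were called, all higher, where 34.6% of all genes were called and 18.4% were called higher. *Chrnb3* rose by 9.53 on the log2 scale (SE 1.66, adjusted p = 0.000283). *Chrna6* had an adjusted p of 0.000289 and was at least 251.3-fold higher at P30, taking as floor the TPM of 3 counts per library at E15.5. Most low counts were even, so where a read pair was counted as 2, this floor stands for fewer than 3 molecules and this bound and those below are too high. These calls were made under all 14 alternatives. The third, *Chrnb4*, rose by 3.79 (SE 1.32, adjusted p = 0.0305) but stayed at or under 0.611 TPM. Its counts were 0, 4 and 2 at E15.5 and 58, 24 and 18 at P30. The *Chrnb4* call was missing from 5 of 13 alternatives, namely scaling by library size, sample quality weights and the fits without E15.5 replicate 1, E15.5 replicate 3 or P30 replicate 1, with adjusted p up to 0.138. Under scaling by library size, *Chrna3* and *Chrna4* were called lower. The median log2 fold change of the 9 subunits was 2.42 with or without *Chrna6* set to its bound, against -0.01 for all genes, but 0.97 without E15.5 replicate 1, 1.29 in edgeR and 1.26 in DESeq2. It was 1.59 without E15.5 replicate 3, over the 10 subunits then tested.

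Among 16583 genes with a group mean over 5 TPM, the gene most like *Chrna6* over the 21 libraries was *Chrnb3*, with a Pearson r of 0.988 on log2(TPM + 1), ahead of *Ankrd34c* (0.984) and *Lmcd1* (0.976). For *Chrnb3* the order was *Ankrd34c* (0.993), *Chrna6* (0.988) and *Crhr1* (0.976). Within the 15 SGN libraries alone, *Chrnb3* was again first for *Chrna6*, at 0.985 among 16454 genes, before *Plekhd1* (0.984) and *Ankrd34c* (0.979). For *Chrnb3* in SGNs the order was *Ankrd34c* (0.990), *Chrna6* (0.985) and *Plekhd1* (0.982). These values describe libraries that share ages and depth, and carry no test.

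**Figure D3:**
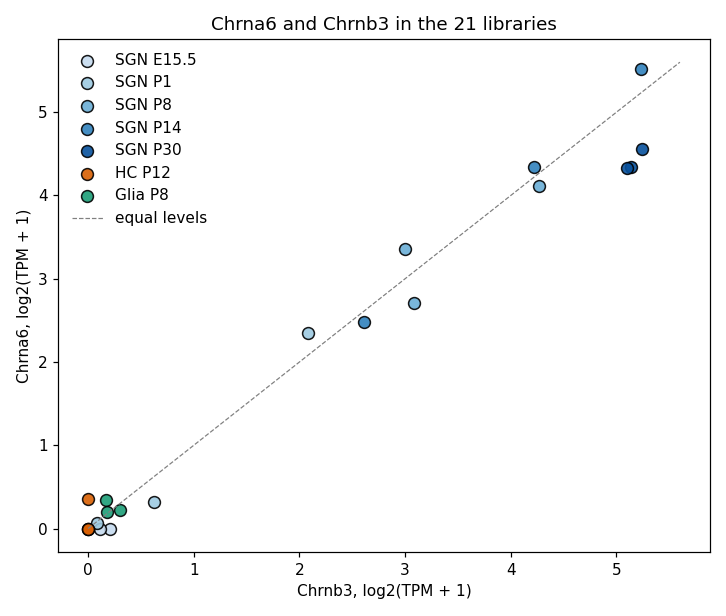
Each point is 1 of the 21 libraries, with *Chrnb3* on the horizontal and *Chrna6* on the vertical axis, both as log2(TPM + 1), and the dashed line marks equal levels. HC, glial and E15.5 libraries sit near the origin, P8 and P14 libraries lie along the line and the 3 P30 libraries lie below it, at ratios of 0.564 to 0.610.

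*Chrna9* and *Chrna10*, the subunits of the efferent receptor of HCs, were by far the most abundant in HCs. *Chrna9* was at 136, 137 and 130 TPM in the HC libraries and *Chrna10* at 179, 166 and 226 TPM. In SGN libraries the highest values were 6.41 TPM for *Chrna9* at P14 replicate 1 and 10.3 TPM for *Chrna10* at P1 replicate 3. No SGN or glial library came near the HC range. The level of *Chrna10* relative to *Chrna9* was between 1.22 and 1.73 in HCs. *Chrna9* was lower in SGNs than in HCs by -5.23 on the log2 scale (SE 0.35, adjusted p = 8.42e-11) and *Chrna10* by -4.99 (SE 0.29, adjusted p = 7.62e-12). In glial cells *Chrna9* was at 4.22, 1.19 and 0.421 TPM and *Chrna10* at 4.11, 1.85 and 1.21 TPM, with replicate 1 the highest for both. HCs exceeded glial cells by 4.84 (SE 0.74, adjusted p = 2.67e-05) for *Chrna9* and by 4.72 (SE 0.60, adjusted p = 3.32e-06) for *Chrna10*. All these calls were made under every alternative tried.

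HC genes were measured at low levels in SGN libraries. Set against the HC mean, *Chrna9* was at 0 to 4.77% and *Chrna10* at 0.0621 to 5.43% in SGN libraries. The HC markers were at 1.51 to 9.24% (*Myo6*), 0.781 to 8.38% (*Myo7a*), 0 to 9.16% (*Pou4f3*) and 0.0283 to 2.89% (*Gfi1*), and the outer hair cell genes *Slc26a5*, *Ocm* and *Ikzf2* at 0.0127 to 9.91%, 0 to 20.1% and 2.91 to 29.5%. P14 replicate 1 was the highest SGN library for *Chrna9*, *Myo6*, *Pou4f3*, *Gfi1* and *Ocm*, P1 replicate 3 for *Chrna10*, *Slc26a5* and *Ikzf2*, and E15.5 replicate 1 for *Myo7a*. In the 15 SGN libraries the genes most like *Chrna10* were *Myo15* (r = 0.965), *Loxhd1* (0.954) and *Strc* (0.950), all known as HC genes with highest group means in HCs. Over all 21 libraries *Chrna9* was most like *Loxhd1*, *Myo15* and *Rbm24* (0.992, 0.992 and 0.992), and *Chrna10* most like *Myo15* (0.994), *Loxhd1* (0.992) and *Gm9860* (0.990).

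**Figure D4:**
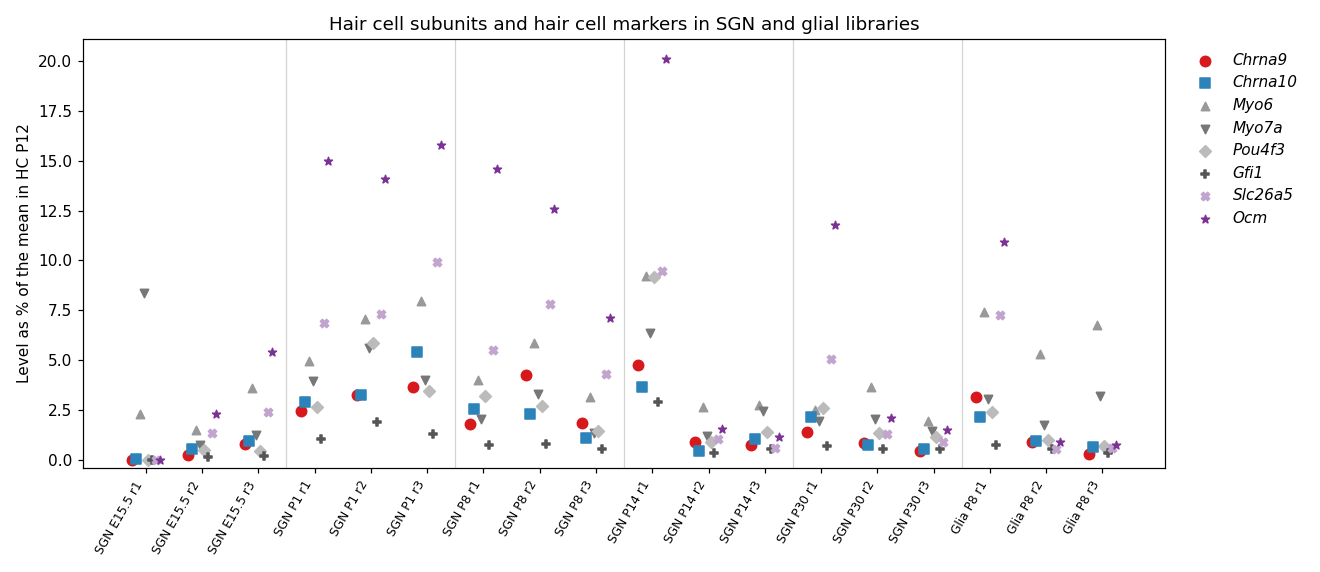
For each SGN and glial library, points give the level of *Chrna9*, *Chrna10*, 4 HC markers and 2 outer hair cell genes as a percentage of the mean in HC P12 libraries (linear axis). *Chrna9* and *Chrna10* stay at or below 5.43% in SGN libraries, while the markers reach 9.24% for *Myo6* and 20.1% for *Ocm*, both in P14 replicate 1. Every gene shown, subunit or marker, has its lowest SGN library at E15.5.

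From E15.5 to P1, 2 of 9 subunits were called in SGNs, and they were *Chrna9* and *Chrna10*, both higher, where 8.26% of all genes were called and 5.08% were called higher. *Chrna9* was at 0, 0.349 and 1.10 TPM at E15.5 and at 3.32, 4.40 and 4.93 TPM at P1, a log2 fold change of 3.77 (SE 1.13, adjusted p = 0.0421). *Chrna10* was at 0.118, 1.06 and 1.80 TPM at E15.5 and at 5.50, 6.18 and 10.3 TPM at P1, a change of 2.80 (SE 0.86, adjusted p = 0.0470). The groups did not overlap for either gene, nor for the HC genes *Myo6*, *Pou4f3*, *Gfi1*, *Slc26a5* and *Ocm*. Those of *Myo7a* and *Ikzf2* overlapped. The share of all genes without overlap over this step was not counted. The HC markers were also read over this step. The summed level of the 4 HC markers was between 10.998 and 29.3 TPM at E15.5 and between 45.98 and 76.9 TPM at P1, and that of 3 outer hair cell markers between 1.64 and 152 TPM and between 396 and 459 TPM. Of the 4 HC markers *Gfi1* was called (log2 fold change 3.20, SE 0.94, adjusted p = 0.0383), while *Pou4f3* was at 4.46 (SE 1.52, adjusted p = 0.0673), *Myo6* at 0.97 (SE 0.32, adjusted p = 0.0583) and *Myo7a* at 0.80 (SE 0.51, adjusted p = 0.321). The libraries of *Myo7a* overlapped, at 19.5, 1.82 and 2.92 TPM at E15.5 and 9.27, 13.03 and 9.30 TPM at P1. None of the outer hair cell markers was called, with *Slc26a5* at 3.57 (adjusted p = 0.0871), *Ocm* at 4.51 (adjusted p = 0.133) and *Ikzf2* at 0.37 (adjusted p = 0.643). The part of HC RNA in the *Chrna9* and *Chrna10* values of SGNs was not tested.

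The 2 calls rested on thin support. The *Chrna9* call was missing from 10 of 14 alternatives and the *Chrna10* call from 12 of 14, with adjusted p reaching 0.142 and 0.160, and leaving out any 1 of the 6 libraries ended both. *Chrnb4* (log2 fold change 3.999, SE 1.29, adjusted p = 0.0554) and *Chrna6* (adjusted p = 0.1997) were called in their place by edgeR. *Chrna7* was at 1.79, 0.225 and 0.0389 TPM at E15.5 and 2.62, 1.65 and 4.30 TPM at P1 (log2 fold change 2.93, SE 1.05, adjusted p = 0.0782). From E15.5 to P30 neither *Chrna9* (2.62, SE 1.22, adjusted p = 0.0944) nor *Chrna10* (1.71, SE 0.95, adjusted p = 0.157) was called.

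The remaining subunits were low wherever they were found. *Chrna3*, the ganglionic α subunit, was at 2.63, 1.66 and 6.02 TPM at E15.5, 1.29, 0.534 and 1.21 TPM at P1 and 0.704, 0.507 and 0.359 TPM at P8. It was at 0, 0.244 and 0.0983 TPM at P14 and at 0.0447, 2.87 and 2.72 TPM at P30. E15.5 was above P1, P8 and P14 in every library, and the P30 libraries were split, with replicate 1 near 0. No change in *Chrna3* with age was called: from E15.5 to P1 it was -2.13 (SE 1.03, adjusted p = 0.187), and from E15.5 to P30 -2.36 (SE 1.04, adjusted p = 0.0782) and 0.03 without P30 replicate 1. *Chrna5*, an accessory subunit that joins α3β4 and α4β2 receptors, was at most 2.57 TPM and at 0 in all P14, HC and glial libraries, and it did not pass the filter on low counts. At P30 both *Chrna3* and *Chrna5* were lowest in replicate 1. *Chrna7* was at most 4.30 TPM in SGNs, at 0 to 0.555 TPM in HCs and at 3.18, 0 and 0 TPM in glial cells.

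*Chrnb4*, the usual partner of α3, was the other low subunit with a cell type pattern. HCs had 3.47, 2.18 and 2.51 TPM, above all SGN libraries (0 to 1.51 TPM) and all glial libraries (0.265, 0 and 0 TPM). The SGN to HC difference was -2.25 on the log2 scale (SE 0.70, adjusted p = 0.0103), outside the 0.01 threshold in the main analysis and inside it under 8 of 26 alternatives. HCs exceeded glial cells by 4.44 (SE 1.11, adjusted p = 0.00285), a call missing from 6 of 14 alternatives. Its neighbor *Chrna3* was at 0 in all HC libraries, so the genes of the chromosome 9 cluster did not follow 1 pattern.

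SGNs differed from HCs in 6 of the 9 subunits tested, where 26.8% of 17531 genes were called at adjusted p under 0.01 and over 4-fold. The SGN value here is the mean of the 5 age means. *Chrna3*, *Chrna4*, *Chrna6* and *Chrnb3* were higher in SGNs (10.5% of genes were), and *Chrna9* and *Chrna10* lower (16.2% of genes were). *Chrna4*, at 0.402, 0.996 and 0.300 TPM in HCs, was higher in SGNs by 7.07 (SE 1.09, adjusted p = 1.23e-05). *Chrnb3* was at 0 in every HC library and at least 137-fold higher at P8 and 435-fold higher at P30 (adjusted p = 4.24e-06 over all ages). *Chrna3*, also at 0 in HCs, was at least 35.5-fold higher at E15.5 and 5.41-fold higher at P8 (adjusted p = 0.000697 over all ages). *Chrna6*, at 0.278, 0 and 0 TPM in HCs, was higher by 6.12 (SE 1.18, adjusted p = 0.000179), although E15.5 SGNs were also at 0, and it was not called by edgeR. *Chrnb2* was not called, being under the 4-fold limit, and its direction depended on the scale. In TPM the mean was 14.4 for all SGN libraries against 15.4 for HCs, with overlapping ranges, whereas the fit on TMM-scaled counts put SGNs higher by 1.12 (SE 0.26, adjusted p = 0.00108), or by 0.57 with library size alone. The median of the 9 was 3.44 and ran from 2.04 without HC replicate 1 to 4.28 without HC replicate 2. For all genes it was 0.02, moving to -0.20 with DESeq2 size factors and -0.53 with library size alone.

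Against glial cells, 4 of 9 subunits were called, all higher in SGNs, where 24.7% of genes were called and 14.3% were called higher. *Chrna4* was at 2.26, 0.194 and 0.0845 TPM in glial cells, highest in replicate 1 as the SGN markers were, and higher in SGNs by 5.76 (SE 1.04, adjusted p = 0.000107). *Chrnb2* was higher by 3.56 (SE 0.53, adjusted p = 1.20e-05), the 1 call of the 4 made under all 26 alternatives. *Chrnb3*, at 0.232, 0.122 and 0.133 TPM in glial cells, was higher by 3.60 (SE 1.08, adjusted p = 0.00879), a call missing from 12 of 26. *Chrna3* was at 0 in every glial library, and was at least 68.2-fold higher at E15.5 (adjusted p = 0.00224 over all ages). Its call was missing under quality weights and without any 1 of the glial libraries. *Chrna9* (-0.39, SE 0.77, adjusted p = 0.705) and *Chrna10* (-0.28, SE 0.63, adjusted p = 0.744) were not called, and both turned positive without glial replicate 1, to 0.59 and 0.28. The median of the 9 was 3.00, against 0.22 for all genes.

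With age matched at P8, 5 of 9 subunits were called higher in SGNs than in glial cells, where 20.9% of genes were called and 13.4% were called higher. *Chrnb3* was higher by 5.56 (SE 1.07, adjusted p = 0.000316), *Chrna6* by 5.16 (SE 1.08, adjusted p = 0.000661), *Chrna4* by 5.45 (SE 1.06, adjusted p = 0.000333) and *Chrnb2* by 3.54 (SE 0.55, adjusted p = 3.28e-05). *Chrna3* was at least 10.4-fold higher (adjusted p = 0.00814), a call that ended without any 1 of the 6 libraries. Under sample quality weights *Chrnb2* alone was called. The median of the 9 was 3.54, or 3.45 with *Chrna3* at its bound, against 0.22 for all genes, and it ran from 2.68 without glial replicate 2 to 5.05 without glial replicate 1.

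HCs were higher than glial cells in 4 of 9 subunits, *Chrna9*, *Chrna10*, *Chrnb2* and *Chrnb4*, where 24.4% of genes were called and 16.2% were called higher. *Chrnb2* was higher by 2.44 (SE 0.58, adjusted p = 0.00175), missing from 5 of 14 alternatives. The median of the 9 was -0.44, against 0.14 for all genes, and its sign depended on the method and on single libraries. It was 0.05 with library size alone and 0 in edgeR and in DESeq2. With only these groups fitted, it was 4.69 over the 4 subunits then tested. It was 1.00 without HC replicate 1 and 2.4002 without glial replicate 1, and likewise 1.00 with *Chrnb3* at its bound and *Chrna3*, at 0 in both groups, left out.

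**Figure D5:**
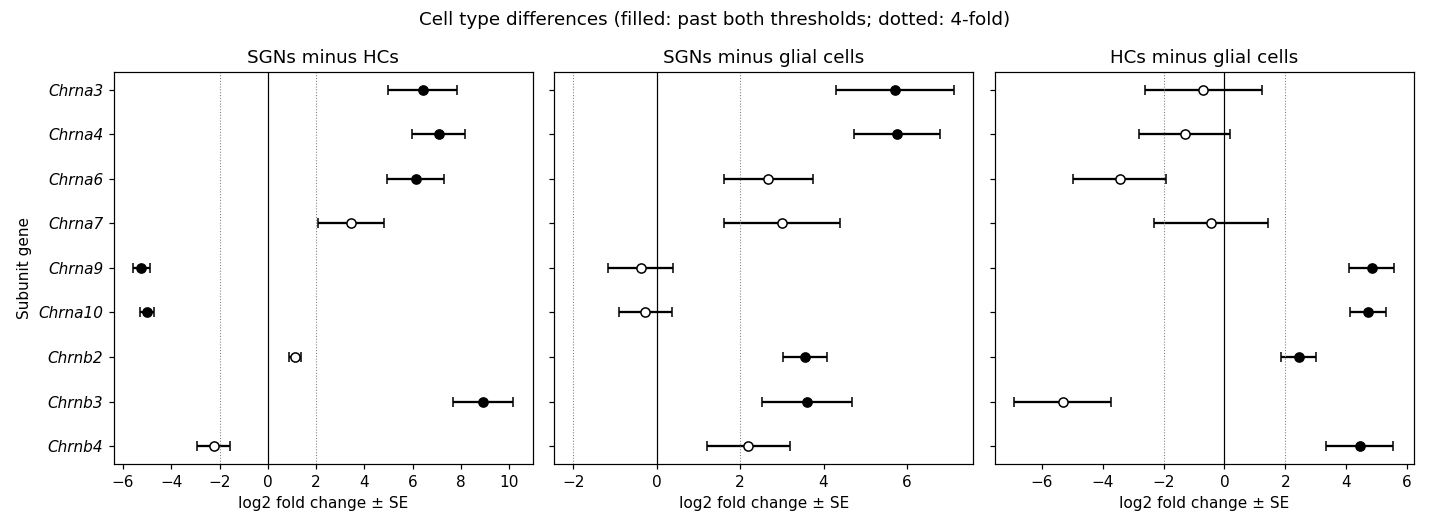
Points are log2 fold changes ± SE from the limma-voom fit of 21 libraries for the 9 subunits tested, in 3 cell type comparisons; filled points passed adjusted p under 0.01 and 4-fold, and dotted lines mark 4-fold. *Chrna9* and *Chrna10* lie left of the line against HCs, near -5.23 and -4.99, and *Chrna4*, *Chrna6* and *Chrnb3* lie right; for genes at 0 in the lower group, *Chrna3* and *Chrnb3* in HCs and *Chrna3* in glial cells, the plotted value depends on the offset added to counts.

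By mean level, *Chrna4* was the highest of the subunits at E15.5, P1 and P8, *Chrna6* at P14 (22.9 ± 20.4 TPM) and *Chrnb3* at P30 (34.8 ± 1.86 TPM). At P14 the ranges of *Chrna6*, *Chrnb3*, *Chrna4* and *Chrnb2* overlapped. At P30 the *Chrnb3* libraries lay above those of all other subunits, and *Chrna4* (27.6 ± 3.84 TPM) above *Chrna6* (20.3 ± 1.90 TPM) and *Chrnb2* (9.56 ± 2.44 TPM) in every library. The order of groups was also read for each subunit. For *Chrnb3*, P30 overlapped P14, P14 overlapped P8, and P8 stood apart from P1. For *Chrna6*, P14 overlapped P30, while P30, P8 and P1 stood apart from each other. For *Chrna4*, E15.5 overlapped P1, P1 stood apart from P30, and P30, P8 and P14 overlapped.

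*Chrna4* was most like *Vgf* (r = 0.963), *Elavl3* (0.962) and *Myt1l* (0.960) over the 21 libraries, and like *Vgf* (0.936), *Atic* (0.910) and *Gab2* (0.886) in SGNs. *Chrnb2* ranked only 1570 in likeness to *Chrna4* over the 21 libraries (r = 0.551). The genes most like *Chrnb2* were *Ntng2* (0.946), *Bex3* (0.943) and *Rtl6* (0.938) over the 21 libraries and *Foxk2* (0.963), *Blmh* (0.959) and *Jade1* (0.959) in SGNs.

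The other cholinergic genes were read from a list of 27 by role, of which 17 passed the low-count filter in SGNs and 20 over all groups. Of the 17, 3 were called higher and 0 lower from E15.5 to P1 (8.26% of all genes were called), 2 higher and 1 lower from P1 to P8 (7.44%), and none from P8 to P14 (0.536%) or from P14 to P30 (0.0596%). From E15.5 to P30, 8 were called higher and 3 lower, where 34.6% of all genes were called. Of the 20, 8 were called higher and 3 lower in SGNs against HCs (26.8% of all genes were called) and 11 higher and 1 lower in SGNs against glial cells (24.7%). In HCs against glial cells 7 were called higher and 1 lower (24.4%), and in P8 SGNs against glial cells 11 higher and 0 lower (20.9%).

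Among the muscle-type subunits, *Chrna1* was an HC gene in these data. It was at 46.3, 51.4 and 61.3 TPM in HCs, at 0.0903 to 3.51 TPM in SGNs and at 0.422, 0.533 and 0.484 TPM in glial cells. SGNs were lower than HCs by -4.65 (SE 0.31, adjusted p = 5.17e-11), and HCs higher than glial cells by 5.12 (SE 0.68, adjusted p = 4.85e-06), under every alternative. That placed *Chrna1* above every listed subunit but *Chrna9* and *Chrna10* in HCs. *Chrnb1* was at 8.07, 12.04 and 9.54 TPM in HCs and at most 8.85 TPM in SGNs, and was called higher from E15.5 to P30 (1.55, SE 0.60, adjusted p = 0.0483), in SGNs against glial cells (3.52, SE 0.86, adjusted p = 0.00200) and in HCs against glial cells (4.16, SE 0.95, adjusted p = 0.00130). The first of these calls was missing from 12 of 14 alternatives, the second without glial replicate 1 or 2, and the third without glial replicate 2. The calls against glial cells were also both missing under sample quality weights. *Chrne* reached 10.4 TPM in HC replicate 1 and *Chrng* 15.2 TPM in E15.5 replicate 3, each with the other libraries of its group at most 4.81 TPM. *Chrne* was not called, and *Chrng* did not pass the filter on low counts.

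The muscarinic receptor *Chrm5* followed the timing of *Chrna6* and *Chrnb3*. It was at 0, 2.75 and 0 TPM at E15.5, at 4.36, 0.160 and 3.40 TPM at P1 and at 29.8, 16.1 and 10.3 TPM at P8, with no overlap between the last pair of ages. It was then at 35.2, 9.24 and 53.2 TPM at P14 and at 47.6, 51.3 and 53.7 TPM at P30. It rose by 3.96 from P1 to P8 (SE 1.12, adjusted p = 0.0302, missing from 8 of 14 alternatives) and by 8.61 from E15.5 to P30 (SE 1.88, adjusted p = 0.00173). SGNs exceeded HCs by 7.44 (SE 1.45, adjusted p = 0.000192) and P8 glial cells by 5.51 at P8 (SE 1.33, adjusted p = 0.00229), the latter call missing from 4 of 14, among them the fits without glial replicate 1 or 3. *Chrm1* was lower in SGNs than in glial cells by -4.16 (SE 1.02, adjusted p = 0.00193), at 1.05, 0.150 and 8.31 TPM in glial cells, and the call ended without glial replicate 3 and under quality weights.

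Of the genes that make, move or break down acetylcholine, *Ache* (acetylcholinesterase) was at 12.1 to 62.6 TPM in SGNs, against 5.55, 2.43 and 2.87 TPM in HCs and 3.30, 2.86 and 0.184 TPM in glial cells. Its log2 fold change was 4.45 against HCs (SE 0.57, adjusted p = 1.30e-06) and 4.03 against glial cells (SE 0.63, adjusted p = 2.08e-05), and 1.17 from E15.5 to P30 (SE 0.22, adjusted p = 0.000462). The call from E15.5 to P30 was missing with library size alone. *Bche*, the related cholinesterase, was at 8.76, 9.62 and 6.74 TPM in HCs and was not called. *Slc5a7*, the choline transporter, was at 0.703, 0.544 and 2.91 TPM in HCs and at 0 in all SGN libraries from P8 on, and was lower in SGNs by -4.29 (SE 0.80, adjusted p = 0.000116).

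Proteins that assemble or tune nicotinic receptors came next in the list. *Lynx1*, a membrane-anchored brake on nicotinic receptors, was at 2.26, 6.70 and 5.80 TPM at E15.5 and at 348, 407 and 258 TPM at P30, and its libraries did not overlap between E15.5, P1 and P8. It rose by 2.68 from E15.5 to P1 (SE 0.53, adjusted p = 0.00487) and by 3.07 from P1 to P8 (SE 0.27, adjusted p = 4.82e-06). *Ly6h*, a relative that limits α7 receptors, went the other way, from 9.08, 3.67 and 14.03 TPM at E15.5 to 0.489, 0 and 0 TPM at P30, and fell by 3.65 from P1 to P8 on the log2 scale (SE 0.65, adjusted p = 0.00163), though not in edgeR or DESeq2.

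Further relatives of *Lynx1* were present in SGNs before birth. *Lypd1* was at 14.7 to 211 TPM in SGNs and rose by 1.55 from E15.5 to P30 (SE 0.32, adjusted p = 0.00126). *Lypd6b* fell by 2.27 on the log2 scale over that span (SE 0.31, adjusted p = 2.56e-05), from 43.4, 18.9 and 70.9 TPM to 7.25, 12.2 and 4.18 TPM. *Lypd6* rose by 1.19 from E15.5 to P1 (SE 0.37, adjusted p = 0.0464), a call missing from 12 of 14 alternatives. *Lypd1*, *Lypd6*, *Lypd6b*, *Lynx1* and *Ly6e* were all called higher in SGNs than in HCs and glial cells, by 2.10 (*Ly6e*) to 7.86 (*Lypd1*) against HCs. The *Ly6e* call was missing from 9 of 26 alternatives against HCs, among them each fit without 1 HC library, and from 4 of 26 against glial cells, and that of *Lynx1* from 3 of 26 against glial cells. *Ly6e* fell by 1.43 from E15.5 to P30 (SE 0.47, adjusted p = 0.0224), a call missing from 5 of 14, among them the fits without E15.5 replicate 2 or 3 and without P30 replicate 2 or 3.

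The chaperone *Ric3* was at 5.13 to 44.8 TPM in SGNs and 28.1, 26.6 and 32.2 TPM in HCs, and *Tmem35a*, the chaperone NACHO, at 6.38 to 54.1 TPM in SGNs and 0.211, 0.815 and 0.157 TPM in HCs. SGNs exceeded HCs in *Tmem35a* by 7.23 (SE 1.23, adjusted p = 4.27e-05). Both rose from E15.5 to P30, *Ric3* by 1.44 (SE 0.30, adjusted p = 0.00108) and *Tmem35a* by 1.34 (SE 0.38, adjusted p = 0.0104), the latter call missing without E15.5 replicate 2 or 3, and both missing with library size alone. *Rapsn*, which clusters the muscle receptor, reached 11.2 TPM in glial replicate 2 and was not called.

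The potassium channels that follow receptor opening in HCs were also listed. *Kcnn2*, the SK2 channel, was at 8.75, 13.8 and 19.1 TPM in HCs and at most 11.6 TPM in SGNs, and like *Chrna9* and *Chrna10* it was called higher in SGNs from E15.5 to P1 (2.92, SE 0.69, adjusted p = 0.0130), a call missing from 3 of 14, among them the fit without E15.5 replicate 3. *Kcnma1*, the BK channel, was at 56.9, 70.6 and 72.6 TPM in HCs and at 6.22 to 32.1 TPM in SGNs, and rose by 1.20 in SGNs from E15.5 to P30 (SE 0.23, adjusted p = 0.000539). This rise was not called with library size alone. HCs exceeded glial cells in both, by 3.92 for *Kcnn2* (SE 0.88, adjusted p = 0.00113) and by 4.12 for *Kcnma1* (SE 0.54, adjusted p = 4.05e-06).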

How the data were processed

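Total RNA of 21 cell pools was purified with PicoPure, amplified with Ovation RNA-Seq V2 and sequenced as Ovation Rapid DR libraries. The authors mapped reads to mm10 with STAR (version 2.4.0i in the processing notes), counted them per GENCODE vM15 gene with featureCounts and deposited raw counts with gene lengths. The strand setting of counting is not given in the sources used here. Counts between 1 and 20 were even in a median of 67.9% of cases, so both reads of a pair may be counted. Labels describe manual sorting for HCs, whereas the paper's methods describe FACS. Symbols and positions came from GENCODE M21, matching 52403 of 52550 genes.

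TPM was computed from counts and lengths. Counts were scaled by TMM (edgeR 4.0.16) and fitted with limma-voom (limma 3.58.1, R 4.3.3), with a mean per group, keeping genes over 1 CPM in all 3 libraries of a group. The fit of 15 SGN libraries held 15113 genes and called at adjusted p 0.05 and 2-fold. The fit of 21 libraries held 17531 genes and called at 0.01 and 4-fold. Tests were two-sided with Benjamini-Hochberg adjustment over all genes of a fit. Both fits were tested on simulated data. Tables were handled with Python 3.11.15 (pandas 2.3.3, numpy 2.4.6) and plots drawn with matplotlib 3.10.9. A count of 3 was the limit a count of 0 allows, or 0.0805 to 0.289 CPM, and covers counting error only.

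Alternatives were DESeq2 size factors or library size for scaling, no filter, edgeR's quasi-likelihood test, DESeq2 1.42.0, sample quality weights, a replicate block, only the groups compared, and leaving out each library. Libraries with the same replicate number deviated together at P14 and P30 (r of 0.400, 0.301 and 0.137 for the 3 numbers). They also did at P1 with P14 and P8 with P30, which were not compared. No other pair of groups passed the cutoff, which all 3 r values had to exceed. All 3 were still positive at P1 with P8 (0.412, 0.0895 and 0.179), P8 with P14 (0.397, 0.183 and 0.0739) and P1 with P30 (0.333, 0.0745 and 0.129). Of the ages compared, the numbers were taken by this cutoff to pair P14 and P30.

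All 10 subunits and, of the 27 cholinergic genes, those called or over 5 TPM in a group are named, with the 3 most alike genes by Pearson r of log2(TPM + 1). The outer hair cell genes and the genes of the promoter windows were named after values were seen. Subunits, lists and tests were chosen with earlier results of these data known. Some marker genes are not reported here, and the marker sums leave them out.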

Additional observations from a re-analysis of the deposited data

How the results depend on the processing

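Each fold change named above was read once under each alternative, and the counts here are of such readings. Under other settings, 765 readings kept their direction and their side of the threshold, 107 lost a call, 20 gained one and 0 changed sign. Without 1 library, 1026 readings kept both, 105 lost a call, 6 gained one and 3 changed sign. The step from E15.5 to P1 held least. In place of 2 subunits, DESeq2 size factors and library size each called 1, the DESeq2 test called 5, sample quality weights and the fit of only the groups compared called 0, and leaving out 1 library called 0 throughout. From P1 to P8, edgeR called 1 subunit, and leaving out 1 library gave 1 to 2, with 1 only without P1 replicate 1. From P14 to P30, where none was called, quality weights called 2, and leaving out 1 library gave 0 to 2, with 2 without P14 replicate 3. Quality weights called 1 subunit in SGNs against glial cells, 2 in HCs against glial cells and 1 at P8. The fit of only HCs and glial cells called 2. Leaving out 1 library gave 2 to 4 in SGNs against glial cells, with 2 without glial replicate 2 or 3, and 2 to 4 in HCs against glial cells, with 2 without glial replicate 2. The cause was not tested in any of these. Without 1 library, the log2 fold change of *Chrna3* from E15.5 to P30 ran from -3.49 (without P30 replicate 3) to 0.030 (without P30 replicate 1). In SGNs against glial cells, that of *Chrna9* ran from -1.10 to 0.59 and that of *Chrna10* from -0.60 to 0.28, in each case without glial replicate 3 and without glial replicate 1.

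With the replicate number as a block, the subunits called were 3 from E15.5 to P1 (*Chrnb4* added), 2 from P1 to P8, 3 from E15.5 to P30, 7 in SGNs against HCs (*Chrnb4* added, lower), 4 in SGNs against glial cells and 5 in HCs against glial cells (*Chrnb3* added, lower). At P14 and P30, the compared ages taken as paired by the cutoff, the block called 0 subunits, as did the fit without it.

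Scaling moved the center of all genes. By library size, the median log2 fold change was -0.48 from E15.5 to P30 and -0.53 in SGNs against HCs, and 1714 genes were called higher and 3944 lower over the ages, against 2778 and 2446 with TMM. In SGNs against HCs these were 1335 and 3779 (1617 and 3190 with DESeq2 size factors), against 1847 and 2847. From P1 to P8 they were 425 and 756, against 648 and 476, and in HCs against glial cells 3580 and 1018, against 2838 and 1434. Quality weights called 289 genes higher and 263 lower from E15.5 to P1, against 767 and 481, the fit of only these groups 370 and 206, and DESeq2 called 22 and 75 from P14 to P30, where quality weights called 41 and 69. In SGNs against glial cells quality weights called 583 and 1434, against 2504 and 1822. Of 70 mean TPM levels, 7 moved by more than 1 SD when divided by the TMM factor, namely *Chrna4*, *Chrna6* and *Chrnb3* at P30 and *Chrna9*, *Chrna10*, *Chrnb2* and *Chrnb4* in HCs. A count of 0 does not show absence at this depth, and 3 libraries per group limit every test.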
